A study of Mus musculus with 12 samples.

Results

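The 39 genes described here are the glycolytic enzymes and transporters (21 genes, Slc2a1 to Slc16a3) and genes of the hypoxia-inducible factor (HIF) axis outside glycolysis (18 genes, Pdk1 to Higd1a). They were taken by gene symbol from a list, and all 39 were found among the 40406 genes of the count table. The list was drawn up with earlier results of these data known, so counts of its members are descriptions. The filter on low counts left 38 of them to be tested. Slc2a3, which encodes a high-affinity glucose transporter, had 12 counts over the 12 libraries and at most 3 in any library, and was not tested. Adm passed the filter only through the wild-type libraries.

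RNA sequencing was used to count transcripts in 4T1 cells, an established line of mouse breast cancer that is triple-negative and of BALB/c strain. They were labelled wild type or knockout for integrin β3, a surface receptor subunit encoded by Itgb3, and both kinds were grown on poly-L-lysine. For 24 h they were given 10 nM docetaxel, a microtubule-stabilising drug of the taxane class, or its solvent DMSO, and were then left for 48 h without drug. The 4 groups were wild-type DMSO, wild-type docetaxel, knockout DMSO and knockout docetaxel, with 3 libraries each that the labels call biological replicates. The sources used here do not say how the knockout was made or whether it is 1 clone. The series asks how integrin β3 bears on the response of these cells to docetaxel.

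Glycolysis turns glucose into pyruvate in the cytosol, and many tumour cells run it fast and release the product as lactate even where oxygen is present. HIF is a transcription factor made of an oxygen-regulated α subunit, such as the product of Hif1a, and a constant partner, the product of Arnt. With oxygen, the prolyl hydroxylases encoded by Egln1 and Egln3 mark the α subunit for destruction through the product of Vhl. Without it, HIF binds hypoxia response elements and raises most glycolytic genes and a further set that acts on mitochondria, pH, vessels and collagen.

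Libraries held 28.7 to 40.8 mega-counts, with 19840 to 22648 genes detected. Levels are given in CPM, counts per mega-count of library total after scaling of the libraries by the TMM method. All 6 epithelial markers were high (38.2 to 1000 CPM over Epcam, Krt8, Krt18, Krt14, Krt19 and Cdh1). Of the markers of other cells, the fibroblast marker Pdgfra, at 11 to 29.7 CPM, was the highest, and Col1a1 was at 0.506 to 1.99 CPM. The leukocyte markers Cd3e and Csf1r were at 1.34 to 4.23 and 1.65 to 3.48 CPM, and S100a8 reached 1.08 CPM. The other leukocyte, fibroblast and endothelial markers, Ptprc, Pecam1 and Col3a1 among them, stayed at or below 0.508 CPM. Itgb3 was at 60.1 to 71.4 CPM in the wild-type DMSO libraries and 62.4 to 66.7 CPM in the knockout DMSO libraries, which differed by −0.03 ± 0.08 on the log2 scale (SE; edgeR adjusted p = 0.874), and by −0.41 ± 0.08 after docetaxel (edgeR adjusted p = 0.00765). The cells are therefore called knockout-labelled, and the direction of each genotype difference depends on the labels. The title and genotype label of wild-type DMSO library 1 say wild type while its free-text description names the knockout, and its Adm level, 5.25 CPM, lay beside the 5.68 and 7.02 CPM of the other wild-type DMSO libraries. Gm23935, an abundant noncoding feature, took 3.98% of the counts of wild-type DMSO library 2 and 1.51% of knockout-labelled docetaxel library 3, each the largest share in its group. Wild-type DMSO library 1 held 1.62%, and it was kept where those 2 libraries were left out together.

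The proximal promoters of 7 members that the results below turn on are shown because each holds at least 1 match to the core of the hypoxia response element. The motifs searched were ACGTG and GCGTG on both strands, so that CACGT and CACGC also count and the palindrome CACGTG counts as 2 matches. Each sequence is the 250 bases before the annotated start in RefSeq GRCm38.p6, written 5′ to 3′ on the strand of the gene, in lower case with matches in capitals. Where a gene has several starts, the window with the most matches is shown. The first 5 genes fell with docetaxel in both genotypes, Pfkfb3 rose in both and Hk2 rose in wild-type cells.
Ldha chr7:46845554-46845803 plus strand: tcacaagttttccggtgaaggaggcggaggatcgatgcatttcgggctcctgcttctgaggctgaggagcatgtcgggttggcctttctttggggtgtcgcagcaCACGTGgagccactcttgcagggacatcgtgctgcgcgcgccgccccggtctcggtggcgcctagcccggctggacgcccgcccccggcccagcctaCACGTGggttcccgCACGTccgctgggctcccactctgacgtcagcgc
Pgk1 chrX:106186850-106187099 plus strand: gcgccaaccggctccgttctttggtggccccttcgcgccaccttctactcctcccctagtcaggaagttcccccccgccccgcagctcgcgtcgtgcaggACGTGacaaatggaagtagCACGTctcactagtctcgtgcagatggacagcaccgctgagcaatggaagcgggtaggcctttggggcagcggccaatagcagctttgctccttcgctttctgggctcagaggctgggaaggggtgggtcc
Aldoc chr11:78322823-78323072 plus strand: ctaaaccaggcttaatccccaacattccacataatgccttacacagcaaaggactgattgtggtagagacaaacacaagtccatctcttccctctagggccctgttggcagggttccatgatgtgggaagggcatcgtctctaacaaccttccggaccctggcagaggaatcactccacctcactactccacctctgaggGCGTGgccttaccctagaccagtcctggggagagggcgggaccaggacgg
Bnip3 chr7:138909507-138909756 minus strand: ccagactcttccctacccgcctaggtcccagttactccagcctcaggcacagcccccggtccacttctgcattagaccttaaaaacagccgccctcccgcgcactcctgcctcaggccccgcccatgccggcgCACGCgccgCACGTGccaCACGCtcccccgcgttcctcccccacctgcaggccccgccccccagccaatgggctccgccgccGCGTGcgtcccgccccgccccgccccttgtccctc
Ankrd37 chr8:45999851-46000100 minus strand: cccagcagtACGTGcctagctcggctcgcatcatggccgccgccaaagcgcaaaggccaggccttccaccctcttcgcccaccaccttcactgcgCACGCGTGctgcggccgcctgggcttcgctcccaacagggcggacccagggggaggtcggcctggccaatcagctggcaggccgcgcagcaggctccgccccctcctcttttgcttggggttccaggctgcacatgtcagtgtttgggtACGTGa
Pfkfb3 chr2:11502091-11502340 minus strand: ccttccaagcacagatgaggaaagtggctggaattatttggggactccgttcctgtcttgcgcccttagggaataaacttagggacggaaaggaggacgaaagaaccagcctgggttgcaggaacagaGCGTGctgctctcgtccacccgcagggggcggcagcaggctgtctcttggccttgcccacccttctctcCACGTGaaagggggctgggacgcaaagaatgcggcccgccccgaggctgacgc
Hk2 chr6:82774455-82774704 minus strand: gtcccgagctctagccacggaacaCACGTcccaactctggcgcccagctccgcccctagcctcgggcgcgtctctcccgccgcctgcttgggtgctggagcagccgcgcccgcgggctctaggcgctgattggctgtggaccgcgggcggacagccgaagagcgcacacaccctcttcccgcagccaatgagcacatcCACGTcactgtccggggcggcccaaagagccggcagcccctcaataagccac
The Ldha stretch held 5 matches, 4 of them from 2 CACGTG palindromes, Bnip3 held 5, Ankrd37 4, Pfkfb3 3, Pgk1 and Hk2 2 each, and Aldoc 1, a GCGTG. A match is a description of letters and not of a bound site.

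RefSeq windows of 300 bases (250 before to 50 after the start) were matched for 36 of the 39 members. They were found for 20 of the 21 glycolysis members, of which 17 had either core in at least 1 window and 13 had ACGTG. All 16 HIF axis members with a window had either core and 13 had ACGTG. Over all 27025 genes with a window, 46.7% had either core and 21.8% had ACGTG. Over the 10445 tested genes that were matched to a window, the shares were 66.6% and 28.7%. A match in any window of a gene counted, so genes with more windows had more chances to match. The glycolysis members had 32 windows, the HIF axis members 25, the matched tested genes 13335 and all 27025 genes 32851. The median GC content of the windows was 62.2% for glycolysis members, 68.3% for HIF axis members and 60.7% for tested genes. Of 25 matched members that fell in both genotypes, 22 had either core and 16 had ACGTG, and the 3 members that rose in a genotype (Hk2, Pfkfb3 and Hif1a) each had ACGTG. Eno2, Tpi1 and Gpi1 had neither core in their windows, and all 3 fell in both genotypes.

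Docetaxel lowered most of the glycolytic transcripts in wild-type cells. Of the 20 tested, 14 fell, 2 rose (Hk2 and Pfkfb3) and 4 did not pass the test (Hk1, Pfkfb4, Pgam1 and Slc16a3). A gene is said to have passed, or to have risen or fallen, where its edgeR p-value, adjusted over the 15538 tested genes, was below 0.05. By that rule 28.4% of all tested genes changed, 13.8% downward and 14.5% upward. The median log2 fold change was −0.50 over the 20 members and 0.02 over all tested genes. Treated and untreated libraries were apart for 11 members on the lower side and 2 on the higher, against 19.3% and 21.2% of all tested genes. Together the 21 glycolysis genes took 1.43% to 1.49% of all counts in wild-type DMSO libraries and 0.924% to 1.10% in wild-type docetaxel libraries. A bulk library cannot tell fewer cells of a kind from less RNA per cell. Without wild-type DMSO library 1, whose description disagrees with its other labels, 10 fell and 2 rose, and without the 2 libraries richest in Gm23935, 12 fell and 1 rose.

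The knockout-labelled cells showed 15 falls and 1 rise (Pfkfb3) among the 20 tested members, while Hk1, Hk2, Pfkfb4 and Slc16a3 did not pass. In these cells 16.1% of all tested genes changed, 7.00% downward and 9.09% upward. The median log2 fold change was −0.60 over the members and 0.00 over all tested genes. Libraries were apart for 16 members on the lower side and 2 on the higher, against 18.5% and 19.2% of all tested genes. The 21 genes took 1.44% to 1.55% of the counts in DMSO libraries and 0.881% to 1.05% in docetaxel libraries of these cells. The numbers without the 2 libraries richest in Gm23935 were again 15 falls and 1 rise. Over all genes, the count of 2499 called was lower without knockout-labelled DMSO library 2 (1311) or 3 (1458), or docetaxel library 1 (1616) or 3 (1500), while 16 or 17 glycolysis members passed whichever library was left out. In both genotypes 14 of the 20 fell and 1 rose, where 5.14% of all tested genes fell in both and 6.46% rose in both, and no member moved in opposite directions.

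**Figure D1:**
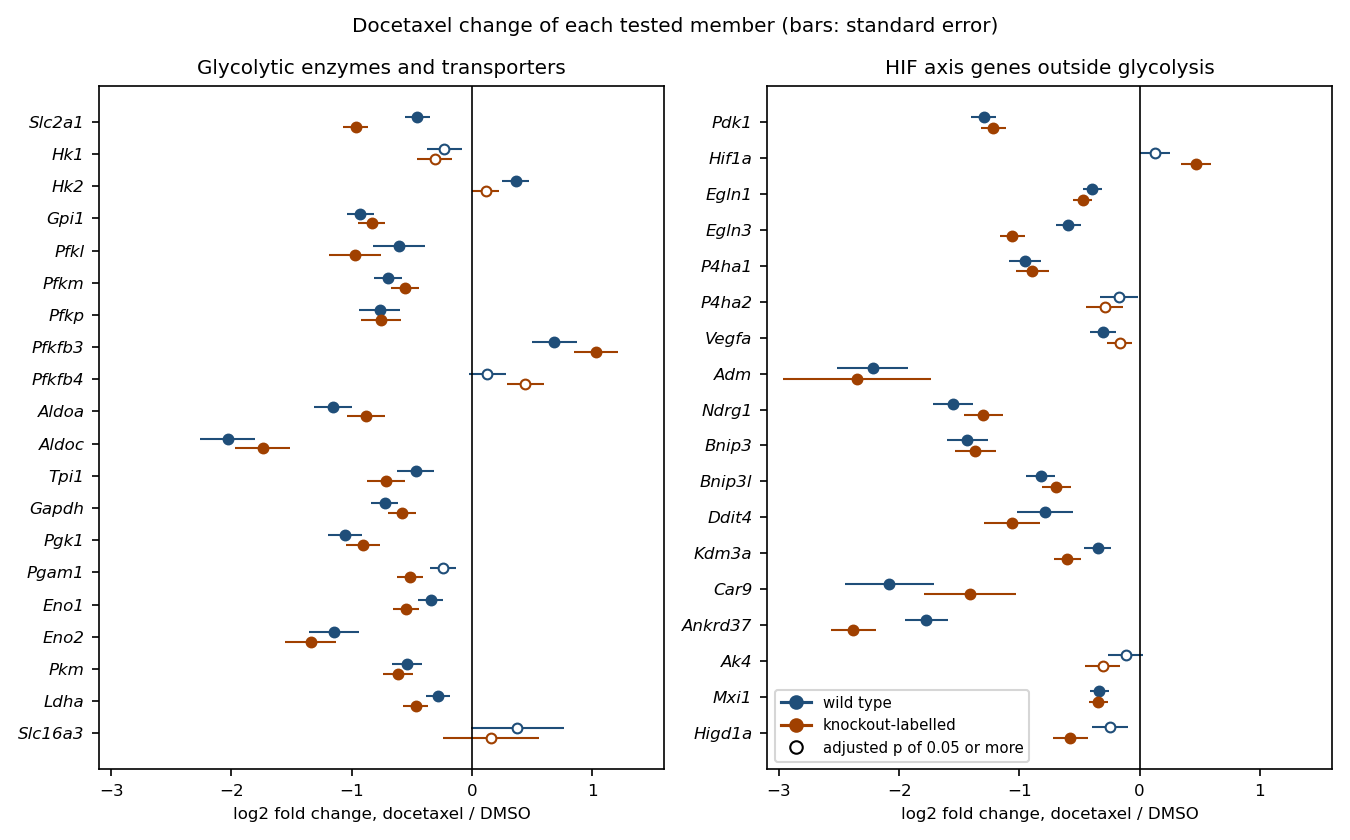
Log2 fold change with docetaxel (x axis) of each tested member in wild-type (blue) and knockout-labelled (orange) cells, with bars for the standard error and open points for an adjusted p of 0.05 or more. Most points lie left of 0 in both panels, Aldoc, Adm, Car9 and Ankrd37 lie farthest left, and Pfkfb3 lies right of 0 in both genotypes.

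Slc2a1 and the phosphofructokinase genes fell in both genotypes, while Hk2 rose in wild-type cells only and the regulator gene Pfkfb3 rose in both. Slc2a1 (ENSMUSG00000028645.11), the main glucose transporter of dividing cells, stood at 153, 117 and 122 CPM in wild-type DMSO libraries and at 94.1, 105 and 87.4 CPM in wild-type docetaxel libraries. In knockout-labelled cells it stood at 148, 161 and 161 CPM with DMSO and at 75.3, 82.3 and 82.7 CPM with docetaxel. Docetaxel libraries were below DMSO libraries in both genotypes, without overlap. Its log2 fold changes were −0.45 ± 0.10 and −0.97 ± 0.10 in the same order (SE; edgeR adjusted p = 0.00569 and 3.01e-05).

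Hexokinase traps glucose as glucose 6-phosphate. Hk2 (chromosome 6, 82725025 to 82774454, minus strand), the inducible hexokinase, was at 145, 103 and 123 CPM in wild-type DMSO libraries and at 149, 164 and 165 CPM in wild-type docetaxel libraries. It was at 184, 181 and 185 CPM in knockout-labelled DMSO libraries and at 176, 219 and 200.5 CPM in knockout-labelled docetaxel libraries. The wild-type docetaxel libraries were all above the DMSO libraries, library 1 by a small margin, while the knockout-labelled groups overlapped. Hk2 rose in wild-type cells, with log2 fold change 0.36 ± 0.11 (SE; edgeR adjusted p = 0.0269), and in knockout-labelled cells the value was 0.12 ± 0.11 (edgeR adjusted p = 0.526). The rise did not pass once wild-type DMSO library 2 or 3 or wild-type docetaxel library 2 or 3 was left out (edgeR adjusted p = 0.0976, 0.0635, 0.0765 and 0.0924). Hk1, the constitutive hexokinase, had log2 fold changes of −0.23 and −0.31 that did not pass (edgeR adjusted p = 0.263 and 0.165).

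Pfkfb3 makes fructose 2,6-bisphosphate, the strongest known activator of phosphofructokinase, and was the 1 member that rose in both genotypes. Pfkfb3 (ENSMUSG00000026773.19; chromosome 2, 11471433 to 11554077, minus strand) stood at 15.9, 25.5 and 28.0 CPM in wild-type DMSO libraries and at 32.9, 40.9 and 37.8 CPM in wild-type docetaxel libraries. Knockout-labelled cells had 21.1, 32.1 and 27.7 CPM with DMSO and 49.4, 55.9 and 60.4 CPM with docetaxel. Every docetaxel library lay above every DMSO library of its genotype. The log2 fold change was 0.69 ± 0.19 in wild-type cells and 1.03 ± 0.19 in knockout-labelled cells (SE; edgeR adjusted p = 0.0141 and 0.00195). Without wild-type docetaxel library 2 the adjusted p in wild-type cells was 0.0532. Its relative Pfkfb4 had log2 fold changes of 0.13 and 0.45 that did not pass (edgeR adjusted p = 0.563 and 0.0616), although DESeq2 gave an adjusted p of 0.0423 for the second.

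Of the phosphofructokinase genes, which encode the enzyme that commits sugar to glycolysis, Pfkl is the liver type and had the highest counts. It was at 484, 326 and 488 CPM in wild-type DMSO libraries and at 217, 349.9 and 286 CPM in wild-type docetaxel libraries. It was at 582, 625 and 551 CPM in knockout-labelled DMSO libraries and at 204, 389 and 305 CPM in knockout-labelled docetaxel libraries. The wild-type groups overlapped, because DMSO library 2 was low, and the knockout-labelled groups did not. The log2 fold changes were −0.61 ± 0.22 and −0.97 ± 0.22 (SE; edgeR adjusted p = 0.0496 and 0.00805). In wild-type cells it did not pass without wild-type DMSO library 1 or 3, wild-type docetaxel library 1 or 3, any knockout-labelled DMSO library or knockout-labelled docetaxel library 3 (edgeR adjusted p = 0.0622 to 0.19). Pfkm and Pfkp fell in both genotypes, by log2 fold changes of −0.70 and −0.55 for Pfkm and −0.77 and −0.75 for Pfkp. Gpi1, the isomerase before this step, fell by log2 fold changes of −0.93 ± 0.11 and −0.83 ± 0.11 (SE; edgeR adjusted p = 8.9e-05 and 0.000225).

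Aldolase splits the phosphorylated sugar, and Aldoc had the largest fall of the glycolysis members in both genotypes. Aldoc (ENSMUSG00000017390.15; chromosome 11, 78322968 to 78327781, plus strand) stood at 97.6, 121 and 136 CPM in wild-type DMSO libraries and at 21.8, 37.6 and 27.6 CPM in wild-type docetaxel libraries. Knockout-labelled libraries held 78.9, 116 and 97.7 CPM with DMSO and 19.7, 34.7 and 33.3 CPM with docetaxel. No docetaxel library came near the lowest DMSO library, and the log2 fold changes were −2.03 ± 0.23 and −1.74 ± 0.23 (SE; edgeR adjusted p = 5.27e-05 and 0.000163). Aldoa, the widely expressed aldolase, was at 1972, 2691 and 2750.0 CPM in wild-type DMSO libraries and at 923, 1302 and 1102 CPM in wild-type docetaxel libraries. It was at 1791, 2113 and 2046 CPM and at 877, 1183 and 1168 CPM in the corresponding knockout-labelled libraries. Library 1 was the lowest of its group in all 4 groups for Aldoa, and the docetaxel libraries remained below the DMSO libraries. The log2 fold changes of Aldoa were −1.16 ± 0.16 and −0.88 ± 0.16 (SE; edgeR adjusted p = 0.000195 and 0.00183). Tpi1, which interconverts the aldolase products, fell by log2 fold changes of −0.47 and −0.71 (edgeR adjusted p = 0.0388 and 0.00768). In wild-type cells Tpi1 did not pass without wild-type DMSO library 1 or 3, wild-type docetaxel library 1 or 3, any knockout-labelled DMSO library or knockout-labelled docetaxel library 3 (edgeR adjusted p = 0.0506 to 0.162).

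The steps that yield energy fell as well. Gapdh, often used as a constant reference gene, was at 2232, 3008 and 2673 CPM in wild-type DMSO libraries and at 1468, 1736 and 1582 CPM in wild-type docetaxel libraries. It was at 2178, 2387 and 2346 CPM and at 1382, 1597 and 1643 CPM in the corresponding knockout-labelled libraries. The treated and untreated libraries of Gapdh did not overlap, and the log2 fold changes were −0.73 ± 0.11 and −0.58 ± 0.11 (SE; edgeR adjusted p = 0.000521 and 0.00358), or 0.605 and 0.669 times the DMSO level. A second Gapdh row in the table repeated the first in every count and was removed.

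Pgk1 (chromosome X, 106187100 to 106203699, plus strand), the first enzyme to make ATP in the pathway, stood at 1003, 1105 and 1218 CPM in wild-type DMSO libraries and at 452, 647 and 499 CPM in wild-type docetaxel libraries. In knockout-labelled cells it stood at 959, 1138 and 1106 CPM with DMSO and at 478, 628 and 608 CPM with docetaxel. The treated libraries lay at about the same levels in both genotypes, all below the DMSO libraries. The log2 fold changes were −1.06 ± 0.14 and −0.90 ± 0.14 (SE; edgeR adjusted p = 0.000163 and 0.000655). Pgam1, the mutase that follows, fell in knockout-labelled cells (log2 fold change −0.51, edgeR adjusted p = 0.00548) and had a value of −0.24 in wild-type cells (edgeR adjusted p = 0.108).

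Both enolase genes fell in both genotypes. Eno2, the neuron-specific enolase, was at 17.3, 20.8 and 21.4 CPM in wild-type DMSO libraries and at 8.55, 10.8 and 7.48 CPM in wild-type docetaxel libraries. It was at 12.9, 19.8 and 19.5 CPM and at 4.86, 8.46 and 7.39 CPM in the corresponding knockout-labelled libraries, again without overlap. Its log2 fold changes were −1.15 ± 0.21 and −1.34 ± 0.21 (SE; edgeR adjusted p = 0.00133 and 0.000735). For Eno1, the main enolase here, the log2 fold changes were −0.34 and −0.55 (edgeR adjusted p = 0.0274 and 0.00343). In wild-type cells Eno1 did not pass without wild-type DMSO library 1 or wild-type docetaxel library 1 or 3 (edgeR adjusted p = 0.0695, 0.112 and 0.098). Eno1 values are uncertain, since its near-identical copy Eno1b held 14.9% as many counts and the sources used here do not say how reads that fit both were counted.

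Pkm, the last enzyme before pyruvate, fell by log2 fold changes of −0.54 ± 0.13 and −0.61 ± 0.13 (SE; edgeR adjusted p = 0.00625 and 0.00464). Ldha, which turns pyruvate into lactate, was at 1158, 1107 and 1035 CPM in wild-type DMSO libraries and at 805, 1046 and 861 CPM in wild-type docetaxel libraries. In knockout-labelled cells Ldha was at 1182, 1205 and 1187 CPM with DMSO and at 794, 885 and 907 CPM with docetaxel. The wild-type groups overlapped through docetaxel library 2, and the knockout-labelled groups did not. Ldha fell by log2 fold changes of −0.28 ± 0.10 and −0.47 ± 0.10 (SE; edgeR adjusted p = 0.048 and 0.0064), which were smaller falls than those of Aldoa, Pgk1 and Gapdh in the same cells. The wild-type change of Ldha did not pass without wild-type DMSO library 1 or 2, wild-type docetaxel library 1 or 3, any knockout-labelled DMSO library or knockout-labelled docetaxel library 2 or 3 (edgeR adjusted p = 0.0535 to 0.189). Slc16a3, a lactate exporter, had 338 counts in all and log2 fold changes of 0.38 ± 0.39 and 0.16 ± 0.40 that did not pass (SE; edgeR adjusted p = 0.502 and 0.83).

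**Figure D2:**
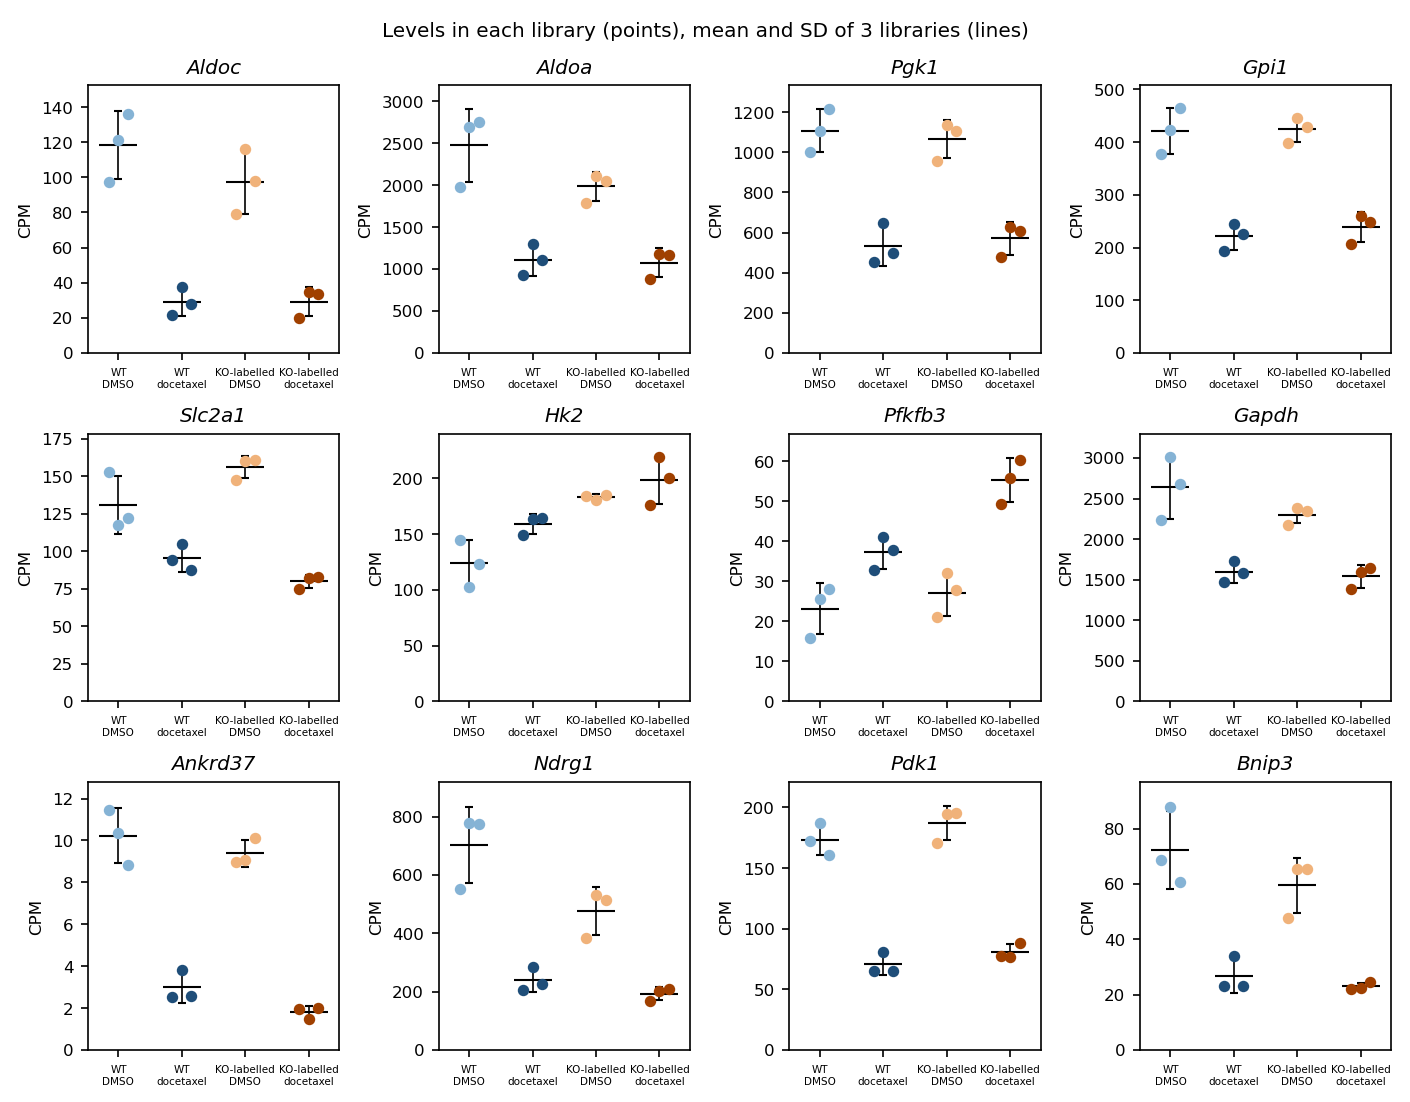
Level in CPM (y axis, linear, from 0) of 12 members in each library (points), with the mean and SD of the 3 libraries of each group (lines). For 10 of the 12, Aldoc, Aldoa, Pgk1, Gpi1, Slc2a1, Gapdh, Ankrd37, Ndrg1, Pdk1 and Bnip3, docetaxel libraries sit below DMSO libraries in both genotypes, while Pfkfb3 sits above in both and Hk2 in wild type.

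Isozyme genes of 1 step were compared within each library as counts per kilobase of annotated exons, which allows levels of different genes to be set side by side. These shares are descriptions with no test. Hk2 made up 40.7% ± 3.82 (SD, n = 3) of Hk1 and Hk2 in wild-type DMSO libraries and 50.8% ± 1.71 in wild-type docetaxel libraries, and 51.6% ± 0.659 and 59.1% ± 2.05 in knockout-labelled libraries. All docetaxel libraries were above the DMSO libraries of their genotype. Aldoc made up 4.11% ± 0.206 of the aldolase pair in wild-type DMSO libraries and 2.25% ± 0.231 after docetaxel, with 4.18% ± 0.451 and 2.33% ± 0.32 in knockout-labelled libraries. Eno2 made up 1.56% ± 0.241 and 0.887% ± 0.1 of the enolase pair in wild-type cells and 1.13% ± 0.244 and 0.651% ± 0.0993 in knockout-labelled cells. The minor, more tissue-restricted aldolase and enolase genes thus held a smaller share of their pair after docetaxel in both genotypes. Pfkfb3 made up 72.7% ± 6.47 and 80.2% ± 2.05 of the Pfkfb3 and Pfkfb4 pair in wild-type cells, where the groups overlapped, and 78% ± 1.63 and 84.3% ± 1.09 in knockout-labelled cells, where they did not. Pfkl made up 68.2% ± 3.32 and 70% ± 2.22 of the phosphofructokinase genes in wild-type cells and 77.7% ± 1.23 and 72.8% ± 3.97 in knockout-labelled cells. The absolute shares depend on the length used: with the length of the principal transcript, an alternative chosen after the data were seen, Hk2 made up 25.1% in wild-type DMSO libraries and 33.6% after docetaxel.

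**Figure D3:**
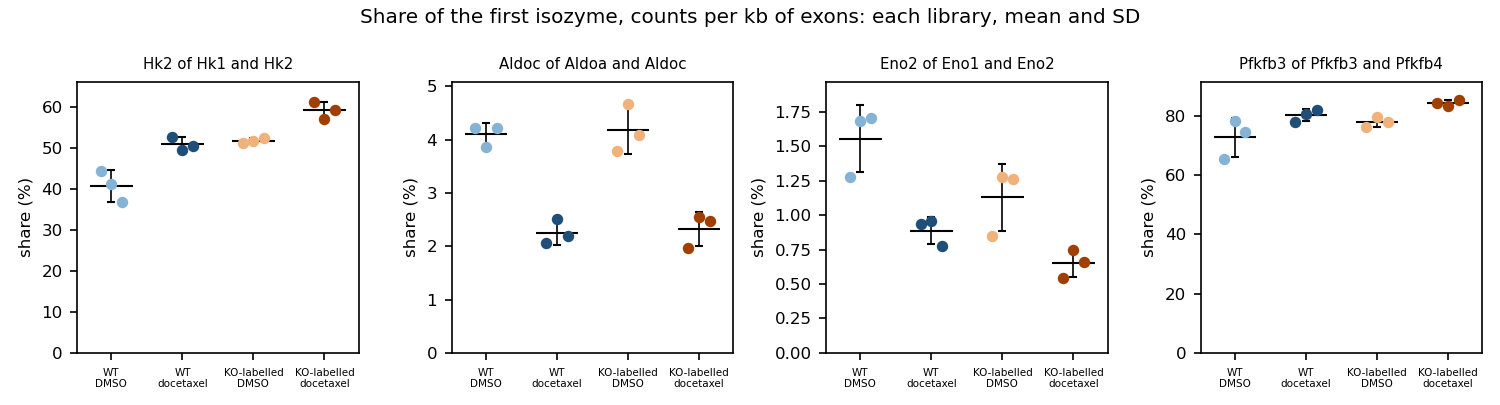
Share (y axis, percent of the summed counts per kilobase of exons, from 0) of the first-named isozyme gene in each library (points), with the mean and SD of 3 libraries (lines). The share of Hk2 is higher and the shares of Aldoc and Eno2 are lower in docetaxel than in DMSO libraries of the same genotype.

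Outside glycolysis, the HIF axis genes fell in similar number. In wild-type cells 14 of 18 fell with docetaxel, none rose, and Hif1a, P4ha2, Ak4 and Higd1a did not pass. The median log2 fold change was −0.69, and for 12 members the docetaxel libraries lay below the DMSO libraries without overlap. In knockout-labelled cells 14 fell, Hif1a rose, and P4ha2, Vegfa and Ak4 did not pass, with a median of −0.79 and 15 members below and 1 above without overlap. The shares of all tested genes given above for the glycolysis members apply here too, 13.8% lower in wild-type cells and 7.00% lower in knockout-labelled cells. In both genotypes 13 of 18 fell and none rose. The 18 genes together took 0.243% to 0.258% of the counts in wild-type DMSO libraries and 0.14% to 0.163% after docetaxel, and 0.219% to 0.254% and 0.143% to 0.146% in knockout-labelled libraries. Without wild-type DMSO library 1, 11 fell in wild-type cells, and without the 2 libraries richest in Gm23935, 12 wild-type falls and 13 in knockout-labelled cells were left.

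Hif1a, the oxygen-regulated subunit, did not fall in either genotype. Hif1a (ENSMUSG00000021109.13; chromosome 12, 73901375 to 73947530, plus strand) was at 157, 198 and 162 CPM in wild-type DMSO libraries and at 199, 185 and 181 CPM in wild-type docetaxel libraries. It was at 139, 141 and 151 CPM in knockout-labelled DMSO libraries and at 242, 166 and 188 CPM in knockout-labelled docetaxel libraries. Wild-type groups overlapped, and the knockout-labelled docetaxel libraries were above the DMSO libraries, with library 1 the highest of the 12. The log2 fold change was 0.13 ± 0.12 in wild-type cells (SE; edgeR adjusted p = 0.486) and 0.47 ± 0.12 in knockout-labelled cells (edgeR adjusted p = 0.0204). The rise did not pass when knockout-labelled DMSO library 1 or 2 was left out (edgeR adjusted p = 0.0723 and 0.0782), nor without docetaxel library 1 of these cells, where the log2 fold change was 0.30 (edgeR adjusted p = 0.0862). HIF-1α is regulated mainly as a protein, which was not measured.

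The oxygen sensors, which are also HIF targets, fell in both genotypes. Egln1 fell by log2 fold changes of −0.40 ± 0.08 and −0.47 ± 0.08 (SE; edgeR adjusted p = 0.00234 and 0.00104). Egln3 was at 102, 101 and 81.1 CPM in wild-type DMSO libraries and at 58.6, 71.2 and 58.5 CPM in wild-type docetaxel libraries. It was at 122, 137 and 137 CPM in knockout-labelled DMSO libraries and at 63.1, 62.3 and 64.4 CPM in knockout-labelled docetaxel libraries. Egln3 thus started higher in knockout-labelled cells and ended at the same level, with log2 fold changes of −0.59 ± 0.10 and −1.06 ± 0.10 (SE; edgeR adjusted p = 0.00104 and 1.17e-05). Of the collagen prolyl hydroxylase subunits, P4ha1 fell by log2 fold changes of −0.95 and −0.89 (edgeR adjusted p = 0.000253 and 0.000526). P4ha2 had values of −0.17 and −0.29 that did not pass (edgeR adjusted p = 0.446 and 0.226).

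Pdk1 and the mitophagy genes link HIF to mitochondria. Pdk1, the kinase that shuts pyruvate dehydrogenase, stood at 172, 187 and 161 CPM in wild-type DMSO libraries and at 65.4, 80.9 and 65.3 CPM in wild-type docetaxel libraries. Knockout-labelled libraries held 171, 195 and 196 CPM with DMSO and 77.2, 76.4 and 87.9 CPM with docetaxel. All docetaxel libraries were far below the DMSO libraries, with log2 fold changes of −1.30 ± 0.10 and −1.22 ± 0.10 (SE; edgeR adjusted p = 3.08e-06 and 3.1e-06). Bnip3, a receptor for the removal of mitochondria, was at 68.6, 87.8 and 60.5 CPM in wild-type DMSO libraries and at 23.2, 33.9 and 23.2 CPM in wild-type docetaxel libraries. It was at 47.8, 65.3 and 65.2 CPM and at 22.2, 22.4 and 24.5 CPM in the corresponding knockout-labelled libraries. Its groups did not overlap either, and the log2 fold changes were −1.43 ± 0.17 and −1.37 ± 0.17 (SE; edgeR adjusted p = 7.68e-05 and 0.000111). Its relative Bnip3l fell by −0.82 ± 0.12 and −0.69 ± 0.12 (SE; edgeR adjusted p = 0.000272 and 0.00131). Higd1a, a protein of the inner mitochondrial membrane, passed in knockout-labelled cells (log2 fold change −0.58, edgeR adjusted p = 0.0173) and not in wild-type cells (−0.25, edgeR adjusted p = 0.234), and the difference between these effects did not pass (edgeR adjusted p = 0.567). The fall of Higd1a did not pass without knockout-labelled DMSO library 2 or 3 or docetaxel library 1 (edgeR adjusted p = 0.0566 to 0.0718). The mitochondrial adenylate kinase gene Ak4 had log2 fold changes of −0.12 and −0.31 that did not pass (edgeR adjusted p = 0.59 and 0.166).

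Ankrd37, Car9 and Adm are known HIF targets, and each fell more than 2 on the log2 scale in at least 1 genotype, as Aldoc did. Ankrd37, an ankyrin repeat protein, stood at 11.5, 10.4 and 8.85 CPM in wild-type DMSO libraries and at 2.54, 3.82 and 2.59 CPM in wild-type docetaxel libraries. The knockout-labelled cells stood at 8.98, 9.05 and 10.1 CPM with DMSO and at 1.94, 1.47 and 1.98 CPM with docetaxel. The separation was complete in both genotypes, with log2 fold changes of −1.78 ± 0.18 and −2.38 ± 0.19 (SE; edgeR adjusted p = 2.08e-05 and 1.76e-06). Of its exonic bases, 22.7% overlap Lrp2bp on the other strand, which held 211 counts against its own 2313. A further gene on the other strand, Ufsp2, overlaps 3.7% of them and held 12009 counts. Whether the counting used strand is not stated in the sources used here.

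Car9, a carbonic anhydrase on the cell surface that acts on pH, was at 6.95, 11.4 and 10.2 CPM in wild-type DMSO libraries and at 1.95, 3.48 and 1.31 CPM in wild-type docetaxel libraries. It was at 3.52, 5.02 and 6.29 CPM in knockout-labelled DMSO libraries and at 0.936, 2.01 and 2.74 CPM in knockout-labelled docetaxel libraries. The docetaxel libraries were below the DMSO libraries in both genotypes, with log2 fold changes of −2.08 ± 0.37 and −1.41 ± 0.38 (SE; edgeR adjusted p = 0.00124 and 0.0227). In knockout-labelled cells Car9 did not pass without DMSO library 2 or 3 or docetaxel library 1 (edgeR adjusted p = 0.0662, 0.0951 and 0.0832).

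Adm (ENSMUSG00000030790.15; chromosome 7, 110627661 to 110629820, plus strand), the gene of the vasodilator peptide adrenomedullin, was at 5.25, 5.68 and 7.02 CPM in wild-type DMSO libraries and at 1.19, 1.46 and 1.19 CPM in wild-type docetaxel libraries. In knockout-labelled cells it was at 0.256, 0.456 and 0.176 CPM with DMSO and at 0.0457, 0.115 and 0 CPM with docetaxel. It was low throughout the knockout-labelled cells, and docetaxel libraries were below DMSO libraries in both genotypes. The groups held 524 and 136 counts in wild-type cells, a ratio of 4.68 (exact 95% counting interval 3.87 to 5.69). They held 28 and 6 counts in knockout-labelled cells, a ratio of 5.36 (2.18 to 15.8), where the interval covers counting error only. The fitted log2 fold changes were −2.22 ± 0.30 and −2.35 ± 0.62 (SE; edgeR adjusted p = 0.000166 and 0.0191). In knockout-labelled cells Adm did not pass without DMSO library 2 or docetaxel library 1 or 3 (edgeR adjusted p = 0.0959, 0.0726 and 0.0559).

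Vegfa, the endothelial growth factor gene and a classical HIF target, changed by less than most members. It stood at 38.4, 36.6 and 41.5 CPM in wild-type DMSO libraries and at 29.2, 34.1 and 31.2 CPM in wild-type docetaxel libraries. In knockout-labelled cells it stood at 39.1, 45.2 and 43.4 CPM with DMSO and at 32.6, 43.0 and 38.2 CPM with docetaxel. The wild-type groups did not overlap and the knockout-labelled groups did. The log2 fold change of −0.30 ± 0.11 passed in wild-type cells (SE; edgeR adjusted p = 0.0477) and that of −0.17 ± 0.11 in knockout-labelled cells did not (edgeR adjusted p = 0.318). The wild-type fall of Vegfa did not pass without wild-type DMSO library 1 or 3, wild-type docetaxel library 1 or 3, any knockout-labelled DMSO library or knockout-labelled docetaxel library 3 (edgeR adjusted p = 0.0512 to 0.166).

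Ndrg1, a stress-responsive gene linked to differentiation, was at 551, 778 and 776 CPM in wild-type DMSO libraries and at 206, 286 and 226 CPM in wild-type docetaxel libraries. It was at 382, 531 and 514 CPM in knockout-labelled DMSO libraries and at 169, 202 and 209 CPM in knockout-labelled docetaxel libraries. The groups did not overlap, and the log2 fold changes were −1.55 ± 0.17 and −1.30 ± 0.16 (SE; edgeR adjusted p = 3.02e-05 and 0.000116). Ddit4, an inhibitor of mTORC1 signalling, fell by −0.79 ± 0.23 and −1.06 ± 0.23 (SE; edgeR adjusted p = 0.0207 and 0.00686). Its wild-type libraries overlapped, and it did not pass without wild-type DMSO library 1 or 3 or wild-type docetaxel library 1 or 3 (edgeR adjusted p = 0.0567 to 0.0931).

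The chromatin and transcription regulators of the list changed less. Kdm3a, a histone demethylase, fell by log2 fold changes of −0.35 and −0.60 (edgeR adjusted p = 0.0325 and 0.00254). Without wild-type DMSO library 1 or 2 or wild-type docetaxel library 1 or 3 the wild-type value did not pass (edgeR adjusted p = 0.0813 to 0.136). Mxi1, an antagonist of Myc, fell by −0.34 in both genotypes (edgeR adjusted p = 0.0058 and 0.00817). The value in knockout-labelled cells did not pass without their DMSO library 3 (edgeR adjusted p = 0.0538).

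The genotypes differed in few glycolysis members under DMSO. Hk2 alone passed among 20 tested, with a higher level in knockout-labelled cells (log2 difference 0.57 ± 0.11, SE; edgeR adjusted p = 0.00387), from 124 ± 21.1 to 183 ± 2.30 CPM (mean ± SD, n = 3) with no overlap. Of all tested genes 15.8% differed, 6.60% higher and 9.20% lower in knockout-labelled cells, and the members' 1 of 20 and 0 of 20 are not above those shares. Libraries were apart for 5 members on the higher side and 1 on the lower, against 15.7% and 16.9% of all tested genes. The median log2 difference was −0.02 over the members and 0.01 over all tested genes. Without wild-type DMSO library 1, Slc2a1 and Aldoa also passed (log2 differences 0.39 and −0.46, edgeR adjusted p = 0.00964 and 0.0499), which made 3 of 20. Without knockout-labelled docetaxel library 1, Eno1 also passed (edgeR adjusted p = 0.048).

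Among the HIF axis members under DMSO, Egln3 and P4ha2 were higher and Ndrg1 and Bnip3l lower in knockout-labelled cells. These 2 higher and 2 lower calls stand beside 6.60% and 9.20% of all tested genes. Adm, also lower, makes 5 of 18 called, and it is left out of that comparison for the reason given below. Libraries were apart for 6 members on the higher side and 5 on the lower. Adm is 1 of those 5 and is not to be set against the share of all tested genes. The shares of all tested genes apart were 15.7% and 16.9%. Adm is given as a description only, since it entered the test through the wild-type libraries and had to be lower in the others: 524 counts in the wild-type and 28 in the knockout-labelled DMSO libraries, a ratio of 20.5 (exact 95% counting interval 14.1 to 31.2). Ndrg1 differed by −0.56 ± 0.16 and Bnip3l, at 308 ± 43.5 against 223 ± 22.3 CPM (mean ± SD, n = 3), by −0.47 ± 0.12 (SE; edgeR adjusted p = 0.0306 and 0.0149). Egln3 differed by 0.48 ± 0.10 (SE; edgeR adjusted p = 0.00624). P4ha2 was at 26.8, 22.7 and 29.4 CPM in wild-type and at 30.9, 41.0 and 38.9 CPM in knockout-labelled DMSO libraries, which did not overlap, and differed by 0.49 ± 0.16 (SE; edgeR adjusted p = 0.0462). Over the 18 members the median was 0.12. The call of Egln3 held in every alternative run. Ndrg1 did not pass without wild-type DMSO library 2 or 3 or knockout-labelled DMSO library 1 or 3 (edgeR adjusted p = 0.0546 to 0.146), and Bnip3l without wild-type DMSO library 2 or knockout-labelled DMSO library 1 (edgeR adjusted p = 0.0642 and 0.0841). P4ha2 did not pass without wild-type DMSO library 1 or 2, wild-type docetaxel library 3, knockout-labelled DMSO library 2 or 3 or knockout-labelled docetaxel library 3 (edgeR adjusted p = 0.0587 to 0.166). Car9, at −0.94 ± 0.35 with no overlap, did not pass (SE; edgeR adjusted p = 0.0851), although DESeq2 gave an adjusted p of 0.0481. The count of 5 members became 2 without wild-type DMSO library 2 and 3 without knockout-labelled DMSO library 1 or 3, where the 2454 calls over all genes became 1581, 1264 and 1566. It was 4 without wild-type DMSO library 1 and 2 without the 2 libraries richest in Gm23935. Each of these counts of members includes Adm.

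After docetaxel edgeR called Ankrd37 among the HIF axis members between the genotypes, and no glycolysis member. Adm makes the count 2, with the same limit as under DMSO. Of all tested genes 5.89% differed, 2.5% higher and 3.39% lower in knockout-labelled cells. Libraries were apart for 2 glycolysis members on the higher side and 1 on the lower, and for 2 and 3 HIF axis members, Adm among the 3. The shares of all tested genes apart were 11.9% and 13.2%. Adm, again a description only, had 136 counts in wild-type and 6 in knockout-labelled libraries, a ratio of 23.6 (exact 95% counting interval 10.5 to 65.3). Ankrd37 was lower by −0.73 ± 0.19 (SE; edgeR adjusted p = 0.0406). Leaving out wild-type docetaxel library 2 or 3 or any 1 of the knockout-labelled libraries ended the call of Ankrd37 (edgeR adjusted p = 0.0564 to 0.196). It was also lost with limma-voom (adjusted p = 0.0924), with the 6 docetaxel libraries alone (edgeR adjusted p = 0.117) and without the 2 libraries richest in Gm23935 (edgeR adjusted p = 0.0949). With no glycolysis member called by edgeR, 3 had an unadjusted p below 0.05 (Hk2, Pfkfb3 and Slc2a1), as with DESeq2 and limma-voom. That count is not read as a result, since the share of all tested genes below the unadjusted cut is not given here. DESeq2 called 1, Pfkfb3 (log2 difference 0.58, adjusted p = 0.0345), for which edgeR gave 0.57 ± 0.18 (SE; edgeR adjusted p = 0.0923) with no overlap between the libraries, and limma-voom called none. Without wild-type DMSO library 1, edgeR also called Pfkfb3 (adjusted p = 0.026). Over all genes, the 915 calls became 609, 551 and 467 without wild-type docetaxel library 1, 2 or 3 and 527 without knockout-labelled docetaxel library 3.

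**Figure D4:**
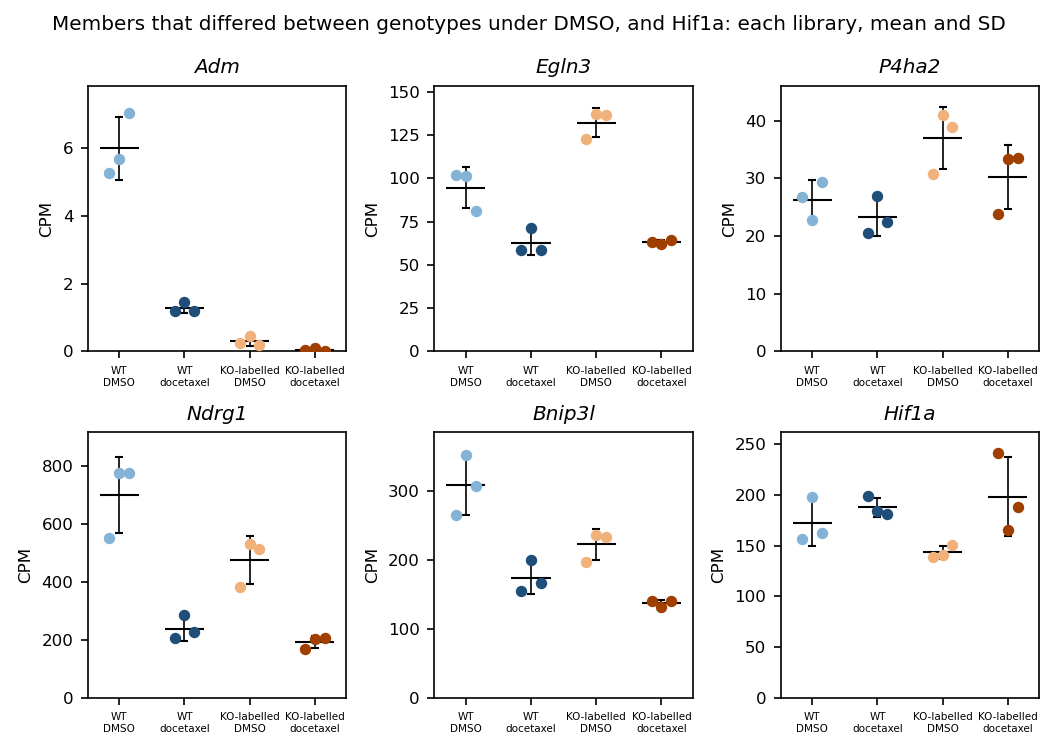
Level in CPM (y axis, linear, from 0) in each library (points), with mean and SD of 3 libraries (lines). The genes are the 5 HIF axis members called between genotypes under DMSO, Adm among them as a description only, and Hif1a. Adm is at 5.25 to 7.02 CPM in wild-type DMSO libraries and at or below 0.456 CPM in all knockout-labelled libraries, and Egln3 starts higher in knockout-labelled cells and ends level.

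The docetaxel effect was compared between the genotypes by their interaction. Of the 20 glycolysis and 18 HIF axis members tested, edgeR, DESeq2 and limma-voom each called 0, and 17 of all tested genes, or 0.109%, were called by edgeR (0.0901% higher and 0.0193% lower). Over all genes DESeq2 called 152 and limma-voom 8, and edgeR without a filter on low counts called 421. At an unadjusted p below 0.05 each of the 3 tools had 1 glycolysis member, Slc2a1, and 2 HIF axis members, Egln3 and Ankrd37. The share of all tested genes below that cut is not given here, so these 3 are not read as a result. The differences of these 3 were −0.51 ± 0.15, −0.47 ± 0.15 and −0.61 ± 0.26 on the log2 scale (SE; edgeR adjusted p = 0.266, 0.303 and 0.415), each a larger fall in knockout-labelled cells. The Slc2a1 difference passed without wild-type DMSO library 1 (edgeR log2 difference −0.64, adjusted p = 0.0191), the library whose description disagrees with its other labels. Over all genes, the 17 calls became 431 without that library, 45 without wild-type DMSO library 3 and 2 to 6 without any wild-type docetaxel or knockout-labelled DMSO library or knockout-labelled docetaxel library 3.

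The other genes of these pathways were read from the same tests, beside the shares of all tested genes: 13.8% lower and 14.5% higher in wild-type cells, and 7.00% lower and 9.09% higher in knockout-labelled cells. Of 25 tested hypoxia-inducible genes outside the 39, 14 fell and none rose in wild-type cells, with a median log2 fold change of −0.35, and 12 fell and 1 rose in knockout-labelled cells, with a median of −0.23. In wild-type cells Stc2, a secreted glycoprotein gene, fell from 16.2 ± 3.60 to 6.25 ± 0.930 CPM (mean ± SD, n = 3), Gbe1, the glycogen branching enzyme, from 19.7 ± 2.77 to 10.3 ± 0.979 CPM, and Fam162a from 111 ± 13.3 to 58.5 ± 15.7 CPM. Their log2 fold changes were −1.38, −0.94 and −0.92 (edgeR adjusted p = 0.00011, 0.00132 and 0.00116). In knockout-labelled cells Fam162a, Pgm1, a phosphoglucomutase, and Pgf, the placental growth factor, fell most, by −1.11, −0.92 and −0.85 (edgeR adjusted p = 0.000434, 0.000127 and 0.000847). The gene that rose there was Hmox1, the haem oxygenase, named after its values were seen (log2 fold change 0.56, edgeR adjusted p = 0.0109). Between genotypes Stc2 was lower in knockout-labelled cells under DMSO (log2 difference −1.76, edgeR adjusted p = 1.8e-05), and Hmox1 was lower by −0.80 (edgeR adjusted p = 0.00104).

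The HIF machinery itself gave 2 falls among 10 tested genes in each genotype and no rise, few genes to set against the 13.8% and 7.00% of all tested genes that fell. Arnt, the constant HIF partner, fell in wild-type cells from 75.1 ± 6.11 to 53.1 ± 1.52 CPM (mean ± SD, n = 3; log2 fold change −0.50, edgeR adjusted p = 0.000741). It was lower in knockout-labelled than in wild-type cells under DMSO, at 54.4 ± 3.99 CPM (log2 difference −0.47, edgeR adjusted p = 0.00189). Vhl fell by −0.36 and −0.41 (edgeR adjusted p = 0.0211 and 0.0191) and Cited2, which competes with HIF for its coactivators, by −0.40 in knockout-labelled cells (edgeR adjusted p = 0.02). In wild-type cells Vhl did not pass without wild-type DMSO library 2 or 3 or wild-type docetaxel library 1 or 3 (edgeR adjusted p = 0.0534 to 0.0865), and in knockout-labelled cells without DMSO library 3 or docetaxel library 2 or 3 (edgeR adjusted p = 0.0596 to 0.0916). Cited2 did not pass without knockout-labelled DMSO library 2 or 3 or docetaxel library 1 or 3 (edgeR adjusted p = 0.0518 to 0.0785).

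Of 27 other genes of glycolysis and pyruvate handling, 4 rose and 7 fell in wild-type cells and 6 rose and 5 fell in knockout-labelled cells. The 4 rises in wild-type cells are near the 14.5% of all tested genes. Without knockout-labelled DMSO library 2 or 3 or docetaxel library 1 or 3, the 11 calls in knockout-labelled cells became 6, 7, 6 and 6. Tigar, a phosphatase that lowers fructose 2,6-bisphosphate and a known p53 target, rose from 3.61 ± 0.590 to 8.19 ± 0.547 CPM in wild-type and from 5.14 ± 0.549 to 10.1 ± 1.04 CPM in knockout-labelled cells (mean ± SD, n = 3). Its log2 fold changes were 1.18 and 0.97 (edgeR adjusted p = 0.000121 and 0.000503). Bpgm, the bisphosphoglycerate mutase, rose in both genotypes, by 1.09 (wild type) and 0.71 (knockout-labelled) on the log2 scale (edgeR adjusted p = 0.000259 and 0.00524). Pdk2, a relative of Pdk1, fell by −1.23 and −1.04 (edgeR adjusted p = 0.00205 and 0.00865). Txnip, which restrains glucose uptake, fell in wild-type cells from 248 ± 97.5 to 79.7 ± 23.3 CPM (mean ± SD, n = 3; log2 fold change −1.64, edgeR adjusted p = 0.000761). Ldhb, the heart-type lactate dehydrogenase gene, lies outside the naming rule and was chosen after its values were seen. It was at 5.70 ± 0.298 CPM in wild-type and 0.254 ± 0.133 CPM in knockout-labelled DMSO libraries and at 5.07 ± 0.507 and 0.527 ± 0.0979 CPM after docetaxel (mean ± SD, n = 3), given as a description with no test.

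The neighbouring pathways held calls in both directions. Of 9 genes listed for the pentose phosphate pathway, 2 rose and 4 fell in wild-type cells and 1 rose and 2 fell in knockout-labelled cells. Tkfc, among the falls in both genotypes, encodes triokinase, which is not an enzyme of that pathway. The count of 6 became 3 without wild-type DMSO library 3 or wild-type docetaxel library 1 or 3. The count of 3 became 1 without knockout-labelled DMSO library 1 or 2 or docetaxel library 1 or 3. Pgd, of the oxidative branch, rose by a log2 fold change of 0.42 in wild-type cells (edgeR adjusted p = 0.00759), and Tkfc fell by −0.44 and −0.53 (edgeR adjusted p = 0.00399 and 0.00169). Of 22 genes of pyruvate dehydrogenase and the citric acid cycle, 4 rose and 3 fell in wild-type cells and 3 rose and 3 fell in knockout-labelled cells, with medians of 0.05 and 0.03. In wild-type cells these counts are near the shares of all tested genes. The count of 6 in knockout-labelled cells became 3, 1 and 2 without DMSO library 1, 2 or 3 and 2 without docetaxel library 1. In wild-type cells Ogdh and Idh3a, of the cycle, rose by 0.54 and 0.49 and Pdha1, a target of the Pdk1 kinase, fell by −0.42 (edgeR adjusted p = 0.000553, 0.00353 and 0.00538).

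**Figure D5:**
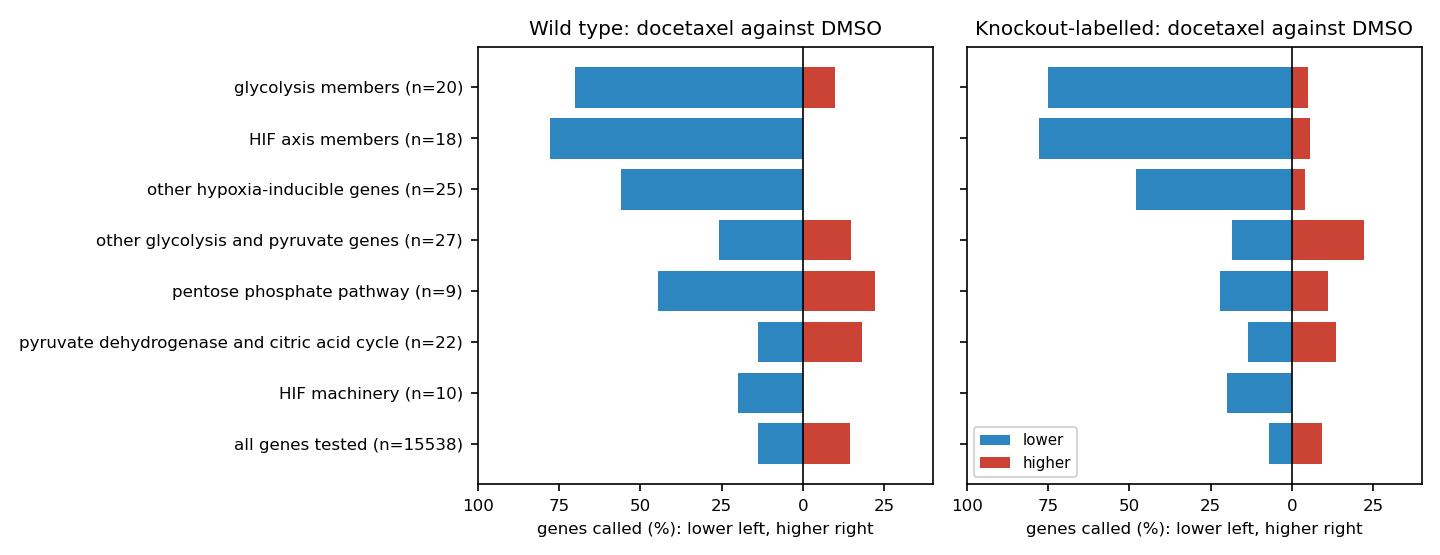
Share of tested genes (x axis, percent) that fell (left, blue) or rose (right, red) with docetaxel in each gene list and over all tested genes, in wild-type and knockout-labelled cells. The bars to the left are longest for the glycolysis and HIF axis members and for the other hypoxia-inducible genes, and the lists of neighbouring pathways have bars on both sides.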

How the data were processed

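RNA of 12 cultures of 4T1 cells was depleted of ribosomal RNA, reverse transcribed with random hexamers and sequenced as paired reads, per the labels' protocols. The authors deposited raw counts of reads per gene symbol. Per the submitters' processing notes, reads were handled by bcl2fastq, with STAR 2.5.1a and featureCounts 1.4.6-p5 also named. The sources used here do not give the build, annotation, strand or multi-mapping settings, so overlapping, antisense and near-identical genes are uncertain. Columns were matched to libraries by title.

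Of 40757 entries, 351 repeated another in symbol and every count (0.907% of counts) and were removed. Symbols were matched to GENCODE M21. The test was the edgeR 4.0.16 quasi-likelihood test (R 4.3.3) on all 12 libraries (filterByExpr, TMM, a mean per group, two-sided), with Benjamini-Hochberg adjustment over 15538 genes within each contrast and a threshold of 0.05. The common biological coefficient of variation was 13.2%. Standard errors were computed as |log2 fold change| over the root of F. Values are means ± SD of 3 libraries, and exact counting intervals cover counting error only. The scripts were tested on simulated counts. Replicate libraries of a group differed by a chi-square of 7.79 to 155 per degree of freedom, so no library repeats another of its group. Libraries of different groups were not compared in this way.

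The members and all gene lists were chosen with earlier results of these data known, so their counts are descriptions. Members with a value for each library were the 6 of the glycolysis and the 6 of the HIF axis set with the largest called docetaxel change, those called upward, up to 4 per set called in a genotype contrast, and Gapdh, Ldha, Slc2a1, Hif1a and Vegfa. From other lists, up to 3 called genes with a mean of at least 5 CPM were named per contrast. Alternatives were DESeq2 1.42.0, limma-voom (limma 3.58.1), other scalings and filters, a GC correction (lowess span 0.3), replicate blocks and the omission of libraries. Figures used matplotlib 3.10.9 in Python 3.11.15.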

Additional observations from a re-analysis of the deposited data

How the results depend on the processing

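All tests were repeated under the other tools, scalings, filters and omissions named in the processing account. With docetaxel, 21 of 28 members lower in wild-type cells and 25 of 29 lower in knockout-labelled cells passed in every alternative run, as did 0 of 2 and 1 of 2 higher members; of the genotype calls other than Adm, Hk2 and Egln3 under DMSO did. No scaling moved the median of all genes by over 0.1 (log2), but upper-quartile scaling put 45.3% of the calls in knockout-labelled cells with docetaxel on the higher side, against 56.5%. Same-numbered libraries had correlations of −0.64 to 0.677 over 10412 genes, 8 of 18 over 0.1, and libraries of different number −0.669 to 0.614; 6 of 12 libraries correlated best with their own number. Nothing in the labels says what a number shares, and whether some libraries are paired cannot be told. The cause of the changes below was not tested.

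With a replicate block, glycolysis members called under DMSO between genotypes were 2 (3 with a GC correction too), after docetaxel 1 (2 with GC), HIF axis members after docetaxel 1, and interaction genes 48 (121 with GC); genes after docetaxel were 1460 with block and GC. With the block, Aldoa and Car9 under DMSO and Pfkfb3 after docetaxel passed between genotypes (edgeR adjusted p = 0.0356, 0.0413 and 0.012), and Ankrd37 after docetaxel did not (0.0635). The GC correction alone gave 1 glycolysis member after docetaxel and 42 interaction genes. Without a filter on low counts, 4 glycolysis members passed under DMSO, 2 after docetaxel and 1 in the interaction, with 421 interaction genes and 1 gene of the HIF machinery in wild-type cells. DESeq2 gave 1 glycolysis member after docetaxel and 152 interaction genes, and limma-voom 1 HIF axis member and 8. With the 6 libraries of the contrast alone, 1 glycolysis and 1 HIF axis member passed after docetaxel, and 1 HIF machinery gene in wild-type cells. Without the 2 libraries richest in Gm23935, genes called were 1267 under DMSO, 565 after docetaxel and 4 in the interaction, HIF axis members 2 and 1, HIF machinery 1 in each genotype, other glycolysis genes 7 and pentose phosphate genes 1 in knockout-labelled cells. Wherever 1 HIF axis member is given after docetaxel between genotypes, it was Adm, which is a description only.

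Leaving out each library in turn gave ranges of 3035 to 4824 genes for docetaxel in wild-type cells, 1311 to 2881 in knockout-labelled cells, 1264 to 3273 between genotypes under DMSO, 467 to 1083 after docetaxel and 2 to 431 for the interaction. Glycolysis members were 11 to 16, 16 to 17, 1 to 3, 0 to 1 and 0 to 1 in that order, and HIF axis members 11 to 14, 11 to 15, 2 to 6, 1 to 2 and 0. The ranges of 2 to 6 and 1 to 2, between genotypes, count Adm, which is a description only there. In wild-type and knockout-labelled cells the HIF machinery gave 1 to 3 and 0 to 2, other glycolysis genes 8 to 14 and 6 to 13, other hypoxia-inducible genes 11 to 16 and 9 to 14, pentose phosphate genes 3 to 6 and 1 to 4, and citric acid cycle genes 5 to 9 and 1 to 8. Of values that did not pass, Ak4 with docetaxel in wild-type cells ranged from −0.295 to 0.0216 (log2), Slc16a3 between genotypes under DMSO from −0.545 to 0.112 (0.114 without the 2 libraries richest in Gm23935) and Car9 between genotypes after docetaxel from −0.629 to 0.193.

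Isozyme shares, as docetaxel minus DMSO in percentage points, changed with the length used. Without division by length Pfkp gave 2.09 and Pfkfb3 4.69 in knockout-labelled cells. With the principal transcript, chosen after seeing the data, Pfkp gave 1.81, Aldoc −1.16 (wild type) and −1.15 (knockout-labelled), and Eno2 −0.427 in wild-type cells. Genes such as Adm and Slc16a3 are limited by their depth.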
